A study of Bos taurus with 4 samples.

Results

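The enzymes that bring pyruvate into the mitochondrion and turn the citrate cycle were followed through 9 genes in bovine morulae: MPC2, PDHA1, CS, IDH3A, SUCLG1, SDHB, SDHC, FH and MDH2. The 9 genes were picked with earlier results of these data known. Their probes were chosen by gene symbol, as every array probe whose platform symbol is one of the 9. MPC2 stands on the platform under its older symbol BRP44. This gave 16 of 43794 transcript probes. Of these, 15 met the criterion on signal over background and entered the test, among 19038 probes tested in all. The tested probes that carry a gene symbol stand for 8476 genes, and the rest belong to no named gene. Each of the 9 genes kept at least 1 tested probe.

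Pyruvate crosses the inner mitochondrial membrane through a carrier built of MPC1 and MPC2, and the pyruvate dehydrogenase complex then oxidises it to acetyl-CoA. Citrate synthase joins acetyl-CoA to oxaloacetate, and the cycle returns to oxaloacetate through isocitrate, 2-oxoglutarate, succinyl-CoA, succinate, fumarate and malate, handing electrons to the respiratory chain on the way. Before the blastocyst stage, cattle embryos are known to draw mainly on pyruvate and other carboxylic acids rather than on glucose.

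The study compared morulae cultured with high glucose (HG, 5 mM) with morulae cultured with control glucose (CTL, 0.2 mM) in synthetic oviductal fluid. The 2 concentrations were applied from day 0 to day 3 only. All embryos then stayed in control medium until day 5 and were collected 120 h after in vitro fertilization. All came from oocytes of slaughterhouse ovaries, so both groups share in vitro maturation, fertilization and culture. Each of 4 arrays (Areas 1 to 4 of 1 slide) carried RNA of 1 HG pool and 1 CTL pool of 10 morulae, amplified before labelling. HG was in Cy5 on Areas 1 and 2 and in Cy3 on Areas 3 and 4. Every ratio below is HG over CTL on the log2 scale, so a negative value means less signal in HG. Pools of whole embryos were measured, so fewer cells of a type and less RNA per cell cannot be told apart. No label says that the pools came from separate fertilizations, and p-values then measure only the spread between these pools.

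The arrays differed from one another in ways that bear on every value below. Over the 19038 tested probes, the HG/CTL ratios of Areas 1 and 3 correlated at r = -0.46, those of Areas 2 and 4 at 0.272, and the other 4 pairs between 0.0315 and 0.141. Of 25 listed markers of cumulus and granulosa cells, which surround the oocyte, 16 were tested. The list also holds matrix genes such as LUM and THBS1. The median ratio of the 16 was -1.74 on Area 1, 0.02 on Area 2, 1.95 on Area 3 and -0.27 on Area 4. Of the 16, 13 were lower in HG on Area 1, 7 on Area 2, 2 on Area 3 and 13 on Area 4. LUM read -4.84 on Area 1 and 3.23 on Area 3, and THBS1 -4.32 and 4.18. The members did not all move alike. CYP19A1, at a mean log2 signal of 7.80, was lower on 4 of 4 arrays, and TNFAIP6 read 0.45 on Area 1. The summed signal of the 16 markers ran from 8020 to 179000 units in HG and from 9870 to 62700 units in CTL. HAS2, CYP11A1, FSHR, INHA, FST, CD44, GREM1, VCAN and AMH did not meet the background criterion. Of 13 embryo markers on the array, 7 were tested (POU5F1, NANOG, KRT8, KRT18, TFAP2C, DPPA3 and KLF17). Their summed signal ran from 26000 to 56400 units in HG and from 55400 to 77500 units in CTL. Paired by array, the HG sum was 0.959, 0.651, 0.361 and 0.811 of the CTL sum on Areas 1 to 4, so it was lower on each. SOX2, CDX2, TEAD4, GATA3, CDH1 and SALL4 did not meet the criterion. The dye record comes from the labels alone, and the results are therefore also given without Areas 1 and 3 and with the sign of either turned.

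None of the 9 genes passed the test, and 7 of them had a lower mean in HG. limma, fitted over all 8476 genes with Benjamini-Hochberg adjustment, gave no adjusted p under 0.05 for any gene (0% of genes), and the lowest adjusted p among the 9 was 0.737. At an unadjusted p under 0.05, 4 genes (MPC2, CS, SUCLG1 and SDHC) were lower and 0 higher, where 4.29% of all genes were lower and 2.42% higher. A lower mean was found for 54.4% of all genes tested. The 7 genes with lower means lay between 60.2% and 87.3% of the CTL signal, and the median ratio of the 9 was -0.63, beside -0.02 over all genes. The 32 other tested genes of the pathway had a median of -0.15. Because the 9 were picked with earlier results known, their counts and median do not test the pathway. CS, SUCLG1 and SDHC were lower on 4 of 4 arrays, which held for 8.46% of all genes. Only CS had HG signals that lay entirely under its CTL signals, a pattern of 2.03% of all genes.

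**Figure D1:**
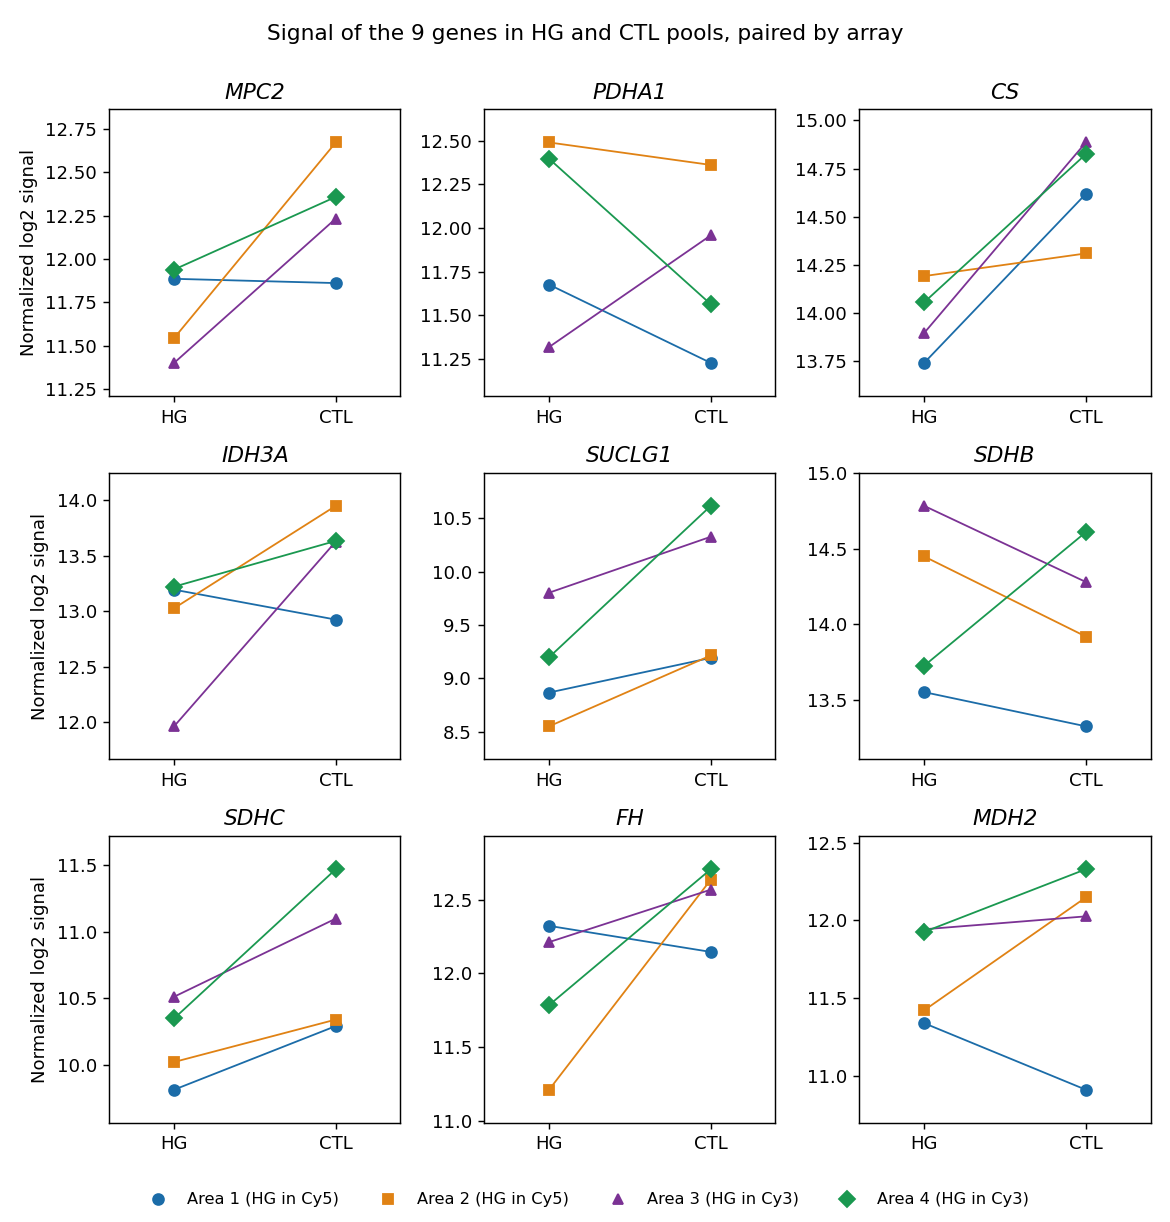
Normalized log2 signal of each of the 9 genes (its brightest tested probe) in the HG pools, left, and the CTL pools, right, with a line joining the 2 pools of 1 array. The lines of CS, SUCLG1 and SDHC run upward from HG to CTL on all 4 arrays, whereas those of PDHA1 and SDHB run downward on 3 of 4.

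MPC2, a subunit of the mitochondrial pyruvate carrier, had log2 signals of 11.89, 11.54, 11.40 and 11.94 in the HG pools of Areas 1 to 4, against 11.86, 12.67, 12.23 and 12.36 in the CTL pools. The HG pools were the dimmer ones on Areas 2, 3 and 4 and level with CTL on Area 1, so the groups overlapped through the CTL pool of Area 1. The mean ratio was -0.59 ± 0.50 (SD, n = 4 arrays, 95% interval -1.16 to -0.02), or 66.5% of the CTL signal, with a limma adjusted p of 0.737. Its partner MPC1, the other subunit, had ratios of 0.98, -1.01, -2.004 and -0.76 and a mean of -0.70 ± 1.24. Both subunits were thus lower in HG on the same 3 arrays, but MPC1 spread over almost 3 log2 units.

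PDHA1 encodes the catalytic alpha subunit of the first enzyme (E1) of pyruvate dehydrogenase, the part that removes carbon dioxide from pyruvate. Its brightest probe, EMBV3_08732, had log2 signals of 11.68, 12.49, 11.32 and 12.40 in HG, against 11.23, 12.36, 11.96 and 11.56 in CTL. HG was the brighter pool on Areas 1, 2 and 4 and the dimmer on Area 3. Over the arrays the ratio averaged 0.19 ± 0.63 (95% interval -0.49 to 0.88), and limma's adjusted p was 1. A second probe of the gene, EMBV3_24147, was lower in HG on 4 of 4 arrays, with log2 signals of 9.82, 10.44, 9.52 and 10.08 in HG and 10.03, 10.59, 11.12 and 11.50 in CTL. The mean ratio of that probe was -0.84 ± 0.77 (55.8% of CTL), with a limma adjusted p of 0.673 over all probes.

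The second PDHA1 probe read lower on the areas with HG in Cy3 than on those with HG in Cy5. EMBV3_24147 averaged -0.18 on the areas with HG in Cy5 and -1.51 on those with HG in Cy3. Its dye term had an unadjusted p of 0.00256 and a limma adjusted p of 0.621. One more probe, EMBV3_04439, lay close to background (above it in HG on 2 of 4 arrays and in CTL on 4 of 4) and averaged -0.19 ± 0.23. The difference between the second and the brightest probe was -0.65, -0.28, -0.95 and -2.25 on Areas 1 to 4. It ran the same way on every array, but the exact two-sided sign-flip test gave p = 0.125, the smallest that 4 arrays allow (adjusted p = 0.333 over the 8 differences computed, all chosen after their values were seen). PDHA1 had no single direction across its probes.

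The other subunits of the complex spread around 0. PDHB, the beta subunit of E1, averaged -0.13 ± 0.91. DLAT, the acetyltransferase core, averaged -0.24 ± 0.49, and PDHX, which tethers the dehydrogenase that DLD encodes, -0.06 ± 0.88. DLD averaged 0.08 ± 1.27, with 1.69 on Area 1 and -1.41 on Area 3, the widest spread in the complex. On the brightest probe of each gene, all 5 subunits were higher in HG on Area 1 and lower on Area 3. The PDHA1 probes EMBV3_24147 and EMBV3_04439 were lower in HG on Area 1, at -0.20 and -0.25. Among the kinases that switch the complex off, PDK2 averaged -0.36 ± 0.49 and PDK3 -0.23 ± 0.50. The phosphatase PDP1, which switches it on, averaged 0.06 ± 0.11. Pyruvate carboxylase (PC), which makes oxaloacetate from pyruvate, averaged 0.09 ± 0.12, and the malic enzyme ME2 -0.14 ± 1.48. PDP1 and PC lay close to background, with mean log2 signals of 7.82 and 7.90 beside thresholds of 7.54 to 7.80. Their small ratios therefore do not show that nothing changed.

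CS, citrate synthase, which opens the cycle, had log2 signals of 13.74, 14.19, 13.90 and 14.06 in HG, against 14.62, 14.31, 14.89 and 14.82 in CTL, on its brightest probe EMBV3_34227. The lowest CTL pool, on Area 2, was still brighter than the highest HG pool, also on Area 2, so the groups did not overlap. The mean ratio was -0.69 ± 0.39 (95% interval -1.17 to -0.21), or 62.1% of CTL, with an unadjusted p of 0.014 and a limma adjusted p of 0.737. With the sign of Area 3 turned the mean was -0.19, and with that of Area 1 turned -0.25. The margin on Area 2 was small, at -0.12, whereas the other 3 arrays lay between -0.99 and -0.77.

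The remaining CS probes read less. EMBV3_35429 had ratios of 0.32, 0.26, -0.79 and -0.41 (mean -0.16 ± 0.53), and EMBV3_27730 had 0.93, -0.19, -0.43 and -0.66 (mean -0.09 ± 0.70). Both were higher in HG on Area 1, where the brightest probe was lower by 0.88. The fourth probe, EMBV3_11732, was above background on no array in either group and was not tested. Averaged over its 3 tested probes, CS had a mean ratio of -0.31 and a limma adjusted p of 0.916. The second probe exceeded the brightest by 0.53 ± 0.45 and the third by 0.60 ± 0.84 (exact sign-flip p = 0.125 and 0.25, adjusted p = 0.333 for both).

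**Figure D2:**
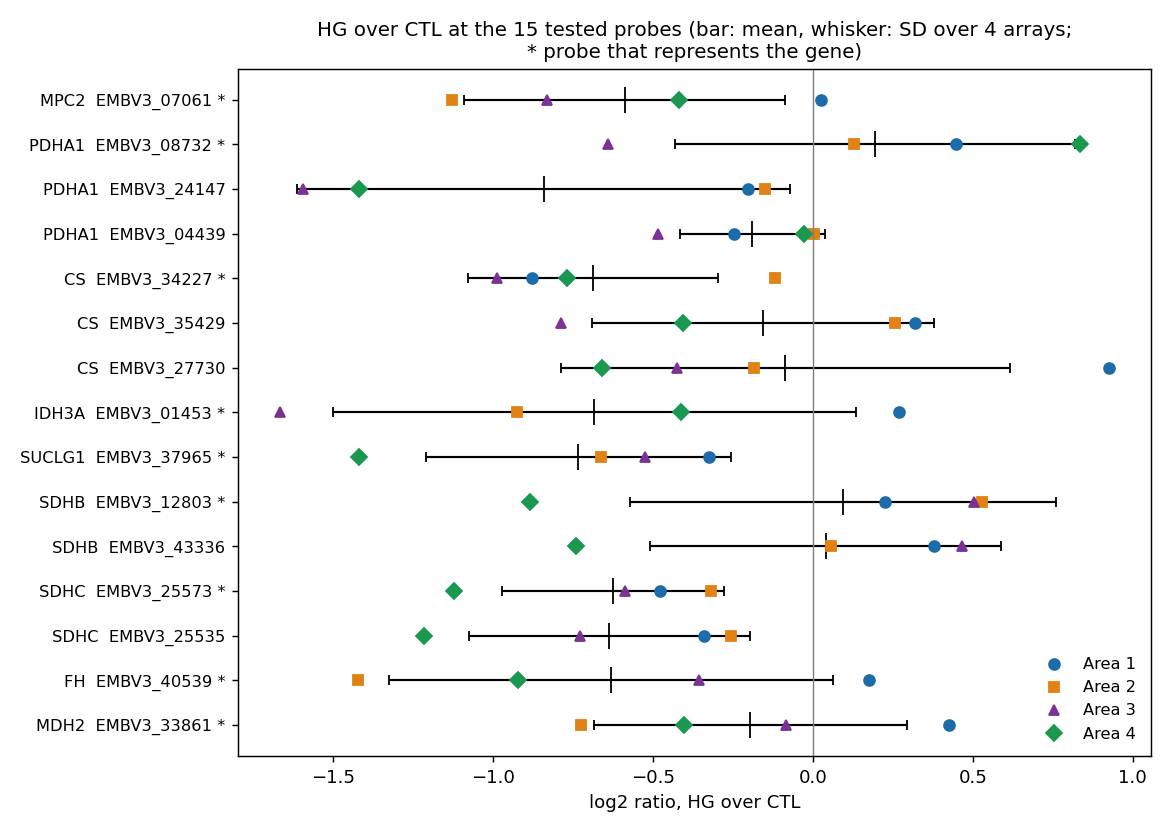
HG/CTL log2 ratio of each of the 15 tested probes on Areas 1 to 4 (points), with the mean (bar) and SD (whisker), where an asterisk marks the probe that stands for its gene. The 2 SDHC probes lie together on the negative side, whereas the PDHA1 probes fall on both sides of 0 and only the brightest CS probe is negative on all 4 arrays.

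ACO1, the cytosolic aconitase, averaged -0.09 ± 1.06. IDH3A, the catalytic alpha subunit of the NAD-dependent isocitrate dehydrogenase, had log2 signals of 13.20, 13.03, 11.96 and 13.22 in HG, against 12.92, 13.95, 13.63 and 13.64 in CTL. The HG pool of Area 3 was the dimmest of all 8, and on Area 1 HG was the brighter pool. The ratio of IDH3A averaged -0.68 ± 0.82 (95% interval -1.54 to 0.18), or 62.3% of CTL, with a limma adjusted p of 0.802. Without Area 3 the mean was -0.36, and with the sign of Area 3 turned it was 0.15.

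The other subunits of the same enzyme also had lower means. IDH3B averaged -0.48 ± 0.47 (unadjusted p = 0.0716, limma adjusted p = 0.765). IDH3G, a regulatory subunit, averaged -0.64 ± 0.78, but its ratio of 0.21 on Area 3 stood opposite to the -1.67 of IDH3A there. The NADP-dependent cytosolic enzyme IDH1 was lower in HG on 4 of 4 arrays, from -0.94 to -0.11, with a mean of -0.40 ± 0.37. All 4 tested isocitrate dehydrogenase genes thus had a lower mean in HG, beside 54.4% of all genes, with a median of -0.56, and 0 passed the test. With the sign of Area 3 turned, their median was -0.046 and IDH3A and IDH1 had means above 0. IDH2 did not meet the background criterion.

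At 2-oxoglutarate dehydrogenase, the E1 gene OGDH averaged -0.16 ± 0.40, at a mean log2 signal of 8.02, not far over background. MRPS36, a subunit that links the components in mammals, averaged -0.43 ± 0.61. No probe is annotated here to the core subunit DLST. SUCLG1 encodes the alpha subunit of succinyl-CoA ligase, which pairs with either of 2 beta subunits, SUCLG2 for GTP and SUCLA2 for ATP. SUCLG1 had log2 signals of 8.87, 8.55, 9.80 and 9.20 in HG, against 9.19, 9.22, 10.33 and 10.62 in CTL. HG was the dimmer pool on every array, and the groups overlapped because Areas 3 and 4 were brighter in both groups than Areas 1 and 2.

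The mean ratio of SUCLG1 was -0.73 ± 0.48 (95% interval -1.28 to -0.18), or 60.2% of CTL, the lowest share of CTL among the 9 genes, with an unadjusted p of 0.0188 and a limma adjusted p of 0.737. The range across arrays was from -1.42 on Area 4 to -0.32 on Area 1. Of the beta subunits, SUCLG2 averaged -0.23 ± 0.63 and SUCLA2 -0.05 ± 0.69. SUCLG1 minus SUCLG2 was -0.50 ± 0.73 and SUCLG1 minus SUCLA2 was -0.69 ± 0.89, each lower on 3 of 4 arrays with an exact sign-flip p of 0.25 (adjusted p = 0.333).

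Succinate dehydrogenase, which is also complex II of the respiratory chain, contributed 2 genes whose values lay apart. SDHB carries the iron-sulfur clusters that pass electrons on from the flavin subunit SDHA. Its log2 signals were 13.55, 14.45, 14.79 and 13.73 in HG, against 13.33, 13.92, 14.28 and 14.61 in CTL. HG was the brighter pool on Areas 1, 2 and 3 and the dimmer on Area 4. SDHB had a mean ratio of 0.09 ± 0.67 (95% interval -0.63 to 0.81), 107% of CTL, with a limma adjusted p of 1, and the second SDHB probe, EMBV3_43336, averaged 0.04 ± 0.55 with the same signs on every array.

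SDHC, a membrane anchor that helps bind ubiquinone, had log2 signals of 9.81, 10.02, 10.51 and 10.35 in HG, against 10.29, 10.34, 11.10 and 11.47 in CTL. Each HG pool was dimmer than the CTL pool beside it, although the groups overlapped. The mean ratio was -0.63 ± 0.35 (95% interval -1.07 to -0.18), or 64.8% of CTL, with an unadjusted p of 0.0151 and a limma adjusted p of 0.737. Its second probe, EMBV3_25535, gave -0.34, -0.26, -0.73 and -1.22, a mean of -0.64 ± 0.44, and differed from the first by -0.01 ± 0.13. SDHC is thus the member with several probes whose readings lay closest together.

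SDHC minus SDHB was -0.70, -0.85, -1.09 and -0.24 on Areas 1 to 4, a mean of -0.72 ± 0.36. SDHC read lower than SDHB on every array, and the exact sign-flip p was 0.125, the smallest possible with 4 arrays (adjusted p = 0.333). SDHA was also lower in HG on 4 of 4 arrays, by as little as -0.03 on Area 3, and averaged -0.49 ± 0.52. SDHD, the other membrane anchor, averaged -0.28 ± 1.04 and read 1.10 on Area 1 and -1.38 on Area 3. The assembly factors SDHAF1, SDHAF2 and SDHAF3 averaged 0.11, -0.06 and 0.18.

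FH, fumarase, which hydrates fumarate to malate, had log2 signals of 12.32, 11.21, 12.21 and 11.79 in HG, against 12.15, 12.64, 12.57 and 12.71 in CTL. The HG pools of Areas 2 and 4 were the dimmest of the 8, and HG was the slightly brighter pool on Area 1. FH had a mean ratio of -0.63 ± 0.69 (95% interval -1.38 to 0.11), or 64.6% of CTL, with a limma adjusted p of 0.779. On Areas 2 and 4 alone FH averaged -1.17, lower than any other of the 9 genes there.

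MDH2, mitochondrial malate dehydrogenase, closes the cycle by returning oxaloacetate. Its log2 signals were 11.34, 11.42, 11.94 and 11.93 in HG, against 10.91, 12.15, 12.03 and 12.33 in CTL. HG was dimmer on Areas 2, 3 and 4 and brighter on Area 1, and on Area 3 the difference was only -0.08. The mean ratio was -0.20 ± 0.49 (95% interval -0.76 to 0.37), 87.3% of CTL, with a limma adjusted p of 0.991.

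The carriers and enzymes of the shuttle and export routes went both ways. ACLY, which splits exported citrate into acetyl-CoA and oxaloacetate in the cytosol, had ratios of -1.11, -1.28, -0.34 and -1.03 and a mean of -0.94 ± 0.42, lower in HG than any other gene of the pathway tested (unadjusted p = 0.00469, limma adjusted p = 0.737). GOT2, the mitochondrial aspartate aminotransferase of the malate-aspartate shuttle, averaged 0.68 ± 0.48 (unadjusted p = 0.0253, adjusted p = 0.737). The aspartate-glutamate carrier SLC25A12 averaged 0.87 ± 1.26, with 1.60 and 2.26 on Areas 2 and 3 and values under 0 on Areas 1 and 4. The 2-oxoglutarate carrier SLC25A11 averaged -0.54 ± 0.53 and the cytosolic aminotransferase GOT1 0.09 ± 0.39.

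**Figure D3:**
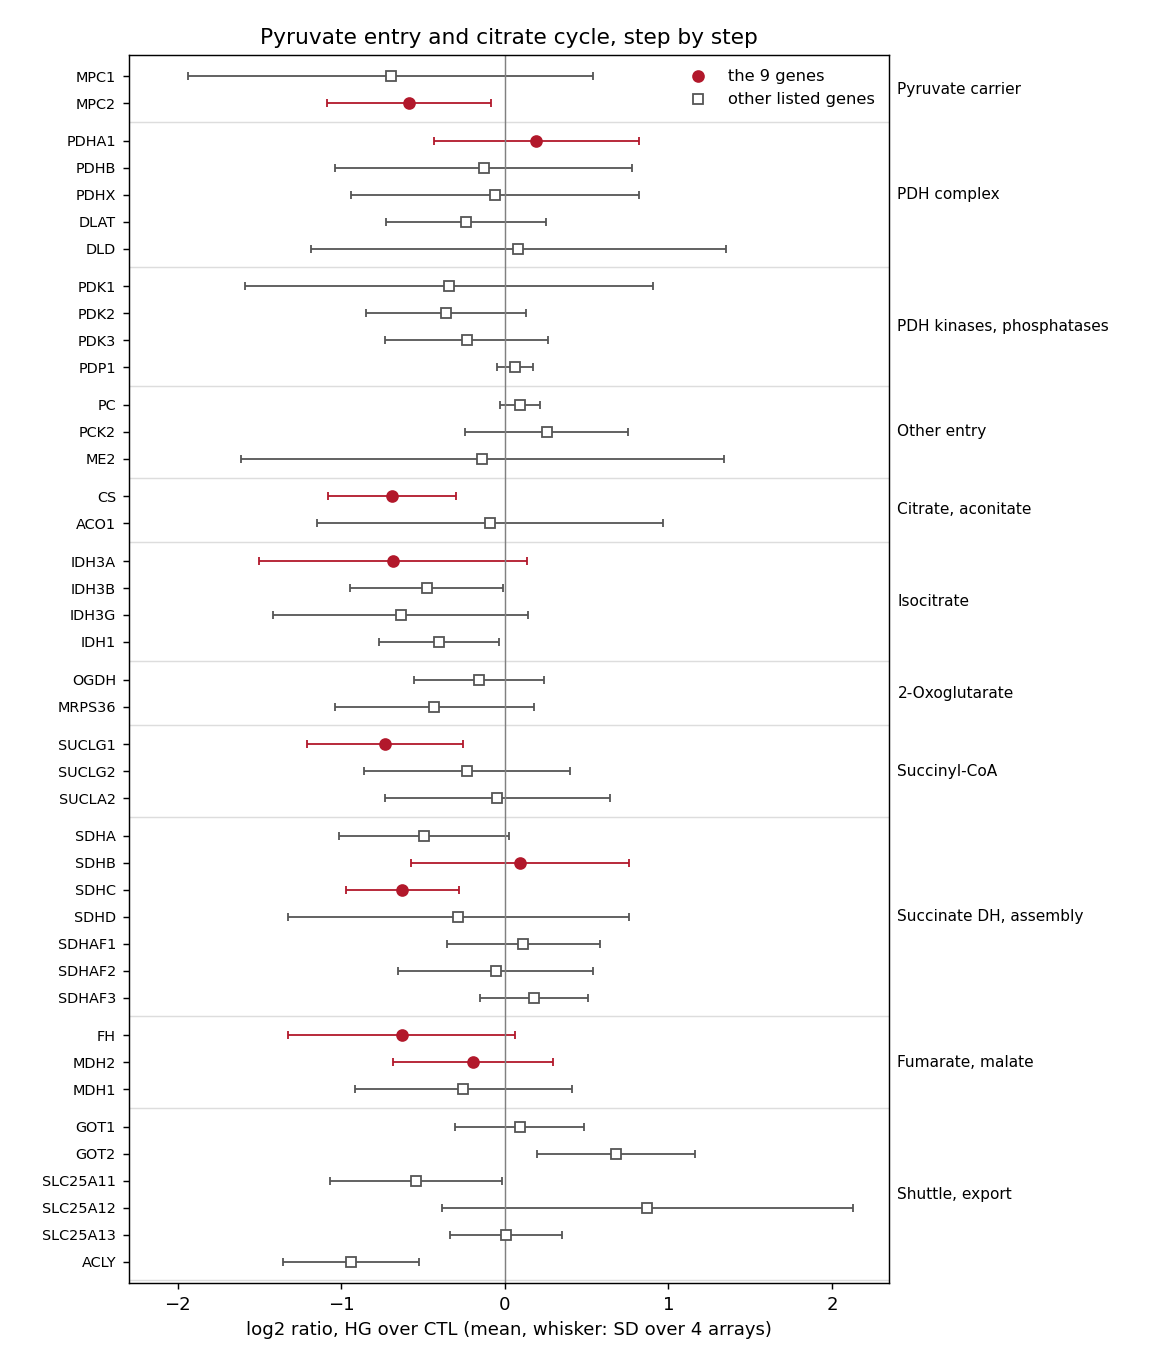
Mean HG/CTL log2 ratio over 4 arrays (points) and its SD (whiskers) for the 41 tested genes of pyruvate entry, the citrate cycle and its export routes, ordered by step, with the 9 genes as filled red points. The isocitrate dehydrogenase genes all lie under 0, ACLY lies lowest at -0.94, and GOT2 and SLC25A12 lie highest.

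Of 53 listed genes of pyruvate entry, the citrate cycle and its export routes, 48 were on the array and 41 were tested. A lower mean in HG was found for 29 of the 41 (70.7%) and a higher mean for 12, beside 54.4% lower over all genes. Apart from the 9 genes, 22 of the 32 others (68.8%) had a lower mean, with a median of -0.15. Among those 32, IDH1, SDHA and ACLY were lower on 4 of 4 arrays and 0 were higher on 4 of 4, beside 8.46% of all genes lower and 5.76% higher on 4 of 4, so the count of lower genes was near the share over all genes. At an unadjusted p under 0.05, 1 of the 32 (ACLY) was lower and 1 (GOT2) higher, close to the 4.29% and 2.42% over all genes, and no gene of the list passed limma's adjusted threshold. The probes of PDK4, PDPR, ME1, ME3, IDH2, OGDHL and SLC25A1 were too close to background to be tested. Neither the platform symbols nor their updates give a probe for PDP2, DLST, SDHAF4 or SLC25A10.

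At the level of probes, 12 of the 15 tested had a lower mean in HG, where 50.7% of all tested probes did. The 5 probes that were lower on 4 of 4 arrays were EMBV3_24147 of PDHA1, EMBV3_34227 of CS, EMBV3_37965 of SUCLG1 and both SDHC probes, a pattern of 7.61% of all probes. HG and CTL signals did not overlap for 1 of the 15, the CS probe EMBV3_34227, and for 1.84% of all probes in the same direction. In the fit over probes, 6 had an unadjusted p under 0.05, all lower in HG (background 4.02%), and the lowest limma adjusted p was 0.63. The dye term reached an unadjusted p under 0.05 for 2 of the 15 probes (EMBV3_24147 and EMBV3_35429), where 7.99% of all probes did.

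The direction differed by array. On Area 1 only 3 of the 9 genes (CS, SUCLG1 and SDHC) were lower in HG and the median ratio was 0.18, whereas 7 were lower on Area 2 (median -0.66), 8 on Area 3 (-0.59) and 8 on Area 4 (-0.77). The median over all genes lay between -0.04 and 0.00 on each array. On Areas 2 and 4, where the cumulus and granulosa markers had medians of 0.02 and -0.27, the median of the 9 genes was -0.67. Area 4 was not balanced for these markers: 13 of the 16 were lower in HG there, and their summed HG signal was 0.585 of CTL. The embryo markers had medians of 0.31, -0.17, -1.43 and -0.02 on Areas 1 to 4. One of them, the keratin gene KRT8, averaged -1.78 ± 0.77, the lowest mean of all genes tested (limma adjusted p = 0.737). The 7 embryo markers did not all go that way: 5 had a lower mean in HG, among them TFAP2C at only -0.08. The other 2, NANOG and KLF17, averaged 0.46 and 0.25. The part of the markers in the ratios of the 9 genes was not tested.

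**Figure D4:**
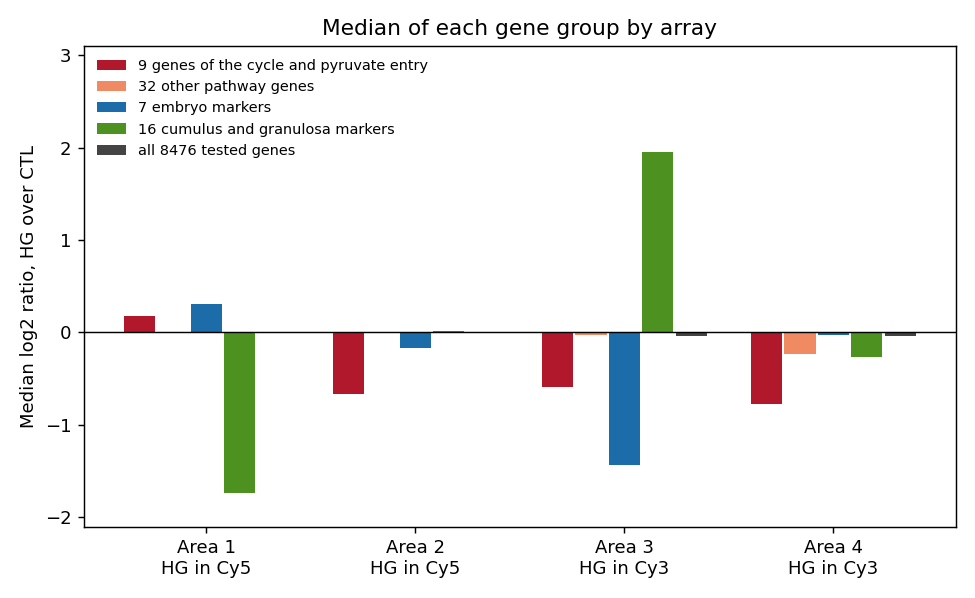
Median HG/CTL log2 ratio on each array for the 9 genes, the 32 other genes of the pathway, 7 embryo markers, 16 cumulus and granulosa markers and all 8476 genes. The bars of the 9 genes lie between -0.77 and -0.59 on Areas 2 to 4 and above 0 on Area 1, whereas the cumulus and granulosa bars change sign between Area 1 (-1.74) and Area 3 (1.95).

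Other choices of arrays changed the counts and single genes. Without Area 1, 7 of the 9 genes were lower on every remaining array, and the same number held for Areas 2 and 4 alone. Fewer arrays agree in sign more easily, and the share over all genes was not computed for them. These counts therefore cannot be set beside the share for 4 of 4 arrays. Area 1 was also the array with the fewest of the 9 genes lower. With the sign of Area 3 turned, 0 genes were lower on every array and the median of the 9 was -0.17. SUCLG1, SDHC, FH, CS, MPC2 and MDH2 kept a mean under 0 under all 19 alternatives. Several of these returned the mean of the main fit unchanged: quantile normalization of intensity between arrays, both changes of filter, separate channels and the dye term. All 19 reuse the same 4 arrays, and the share of all genes that kept their sign was not computed. CS ranged from -0.88 to -0.19, the weakest value with Area 3 turned. MPC2 ranged from -0.79 to -0.17, with -0.17 when Area 3 was turned. SUCLG1 ranged from -1.04 to -0.47, SDHC from -0.74 to -0.33, FH from -1.17 to -0.37 and MDH2 from -0.56 to -0.02. SDHB ranged from -0.18 to 0.42 and PDHA1 from -0.28 to 0.51.

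**Figure D5:**
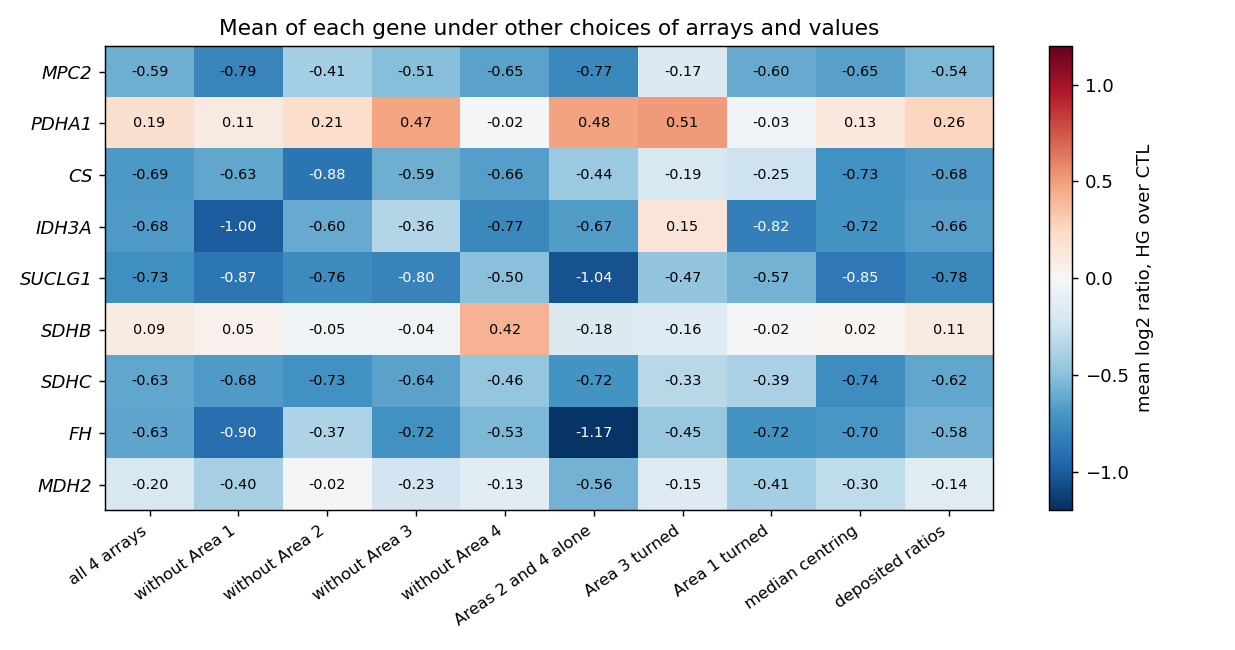
Mean HG/CTL log2 ratio of each gene (rows) with all 4 arrays and under 9 other choices of arrays and values (columns), on a colour scale centred on 0. MPC2, CS, SUCLG1, SDHC, FH and MDH2 stay under 0 in every column. IDH3A turns to 0.15 when the sign of Area 3 is turned, and PDHA1 and SDHB change sign between columns.

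Likeness of pattern was measured as the root mean square difference, over the 4 arrays, from the median profile of the 9 genes (0.18, -0.66, -0.59 and -0.77). Within the set, MPC2 (0.324) and MDH2 (0.337) lay closest to that profile, and 2.65% and 3.2% of the 8467 other genes lay at least as close. The 9 genes themselves define the profile, so their closeness to it is in part built in and is no evidence of a shared pattern. SDHB (0.811) and PDHA1 (0.905) lay farthest from it, with 67.1% and 75.5% of other genes at least as close. Outside the set the 6 closest genes were PABIR1 (0.0427), VPS50 (0.0989), IER3IP1 (0.107), HPF1, NXT1 and ATP5PO (0.127). ATP5PO, a subunit of the mitochondrial ATP synthase, had ratios of 0.24, -0.73, -0.81 and -0.69 on Areas 1 to 4.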

How the data were processed

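RNA was measured on 4 EmbryoGENE bovine 2-colour arrays, each with 1 HG and 1 CTL pool. The scanner tables hold raw spot intensity at 532 nm (Cy3) and 635 nm (Cy5) with local background, not normalized, per the file headers. The scanner program was not given in the sources used here, and neither was its version. A deposited table holds the authors' log2 ratios, which ran as Cy5 over Cy3 (r = 0.937 to 0.981 with the values computed here). Per the submitters' processing notes, limma was used.

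With limma 3.58.1 in R 4.3.3, mean intensities were corrected by normexp (offset 50) and loess-normalized within arrays, with control and ignored spots at weight 0 and ignored spots (29 to 151 per array) set missing. Ratios were turned to HG over CTL. A probe was tested if its log2 signal lay more than 2 SD over the average of the 153 negative controls in HG or in CTL on all 4 arrays, and a gene was its brightest tested probe. Raw median signals were 159 to 287 in HG and 153 to 212 in CTL, and 4 arrays limit the precision. lmFit and eBayes tested the mean against 0, adjusted over all genes or probes; ± is the SD over arrays and intervals are limma's 95% intervals.

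Symbols come from the platform annotation (21790 probes with 1 symbol, 22004 with none), with 982 updated through RefSeq names. The script was tested on simulated data. Named genes are the 9, the measured genes of the pathway list and the 6 closest in pattern. The members and lists were chosen with earlier results of these data known. HG and CTL pools of 1 array share a replicate number by design, and the ratio within an array is the pairing. Alternatives concerned background, spot summary, normalization, filter, test, dye term, deposited values, arrays, dye record and probe choice. No probe sequences or genome coordinates were used here.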

Additional observations from a re-analysis of the deposited data

Results flagged for a closer look

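Among the 49 results tested, 4 pathway genes had 1 array far from the other 3 by Dixon's criterion, and chance alone flags about 1 in 20; none is one of the 9 genes. PDK1, a kinase that inactivates pyruvate dehydrogenase, read -2.20 on Area 1 against 0.13 to 0.40 on the others, and its mean of -0.34 ± 1.25 becomes 0.28 without that array. ACO1, the cytosolic aconitase, read 1.48 on Area 3 against -0.72 to -0.42, with a mean of -0.62 without it. OGDH read -0.75 on Area 1 against -0.02 to 0.11, with a mean of 0.04 without it. MDH1, the cytosolic malate dehydrogenase, read 0.74 on Area 1 against -0.68 to -0.47, with a mean of -0.58 without it. All 4 values lie on Area 1 or Area 3.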

How the results depend on the processing

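No gene and no member probe had an adjusted p under 0.05 in limma under any of 19 alternatives (18 for probes), and 7 to 9 of the 9 genes had lower means throughout. The alternatives reuse the same 4 arrays, and several leave the means as they were. Of the pathway genes, 29 of 41 had lower means, 24 of 41 with the sign of Area 3 turned and 33 of 48 with no filter. The median of all genes stayed between -0.07 and 0.00. The count of the 9 genes lower on every array (3) was 5 with the median of pixels, 7 with Areas 2 and 4 alone, 0 with the sign of Area 3 turned, and 3 to 7 when 1 array was left out, with 7 without Area 1. No share over all genes was computed for fewer than 4 arrays. Their median (-0.63) was -0.17 with Area 3 turned and -0.68 to -0.41 with 1 array left out. Genes at an unadjusted p under 0.05 (364 lower, 205 higher) were 174 lower and 29 higher with median centring, 435 higher with Areas 2 and 4 alone, 433 higher with Area 3 turned, and 173 to 460 lower and 85 to 371 higher with 1 array left out (203 lower and 85 higher without Area 2, 371 higher without Area 3, 173 lower and 104 higher without Area 4). SDHB turned to -0.051 without Area 2, -0.043 without Area 3 (-0.051 to 0.42 with 1 array left out), -0.18 on Areas 2 and 4, -0.16 with Area 3 turned and -0.019 with Area 1 turned. PDHA1 turned to -0.021 without Area 4 (-0.021 to 0.47 with 1 array left out), -0.032 with Area 1 turned and -0.28 as the mean of its probes, and IDH3A to 0.15 with Area 3 turned. Fewer arrays enter the leave-one-out fits; the cause of the other moves was not tested. The fit of separate channels with no replicate block, which sets the pairing within arrays aside, also called 0 genes. MPC2, CS, SUCLG1, SDHC and FH had adjusted p values from 0.299 to 1 over these alternatives.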
